A study of Mus musculus with 13 samples.

Results

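The proximal tubule clears drugs, toxins and metabolic waste by moving organic anions and cations from blood to urine, and 9 genes that encode carriers of this pathway were followed here through endotoxin treatment of mice. The genes were Slc22a2, Slc22a6, Slc22a7 and Slc22a8, grouped as basolateral uptake carriers, and Slc47a1, Abcc2, Abcc4, Abcb1a and Abcg2, grouped as apical efflux carriers. They were chosen by gene symbol, and each had 1 probe set that carried that symbol alone, so 9 of the 22180 genes tested are described. Expression was measured on Affymetrix whole-transcript arrays in S1 segments, the first stretch of the proximal tubule, from male C57Bl/6J mice whose ages the labels do not give. The 4 control samples came from mice given saline. The 4 LPS samples came from mice given 5 mg/kg of lipopolysaccharide (LPS, a bacterial endotoxin) by intraperitoneal injection and were taken at 24 h. The 5 LPS/LPS samples came from preconditioned mice, which received 0.25 mg/kg and, 24 h later, the same 5 mg/kg. These samples were likewise taken 24 h after the 5 mg/kg dose. No group carried a genetic change. Whether the arrays of a group stem from different mice is not stated, so each p-value reflects the variation among samples, which may be technical.

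Secretion runs in 2 steps. Carriers of the blood-facing membrane take up the solute: the organic anion transporters exchange it for alpha-ketoglutarate, and the organic cation transporter lets it follow the membrane potential. Carriers of the brush border then release it, either by exchange for protons or by ATP hydrolysis in the ABC transporters. These genes set how the kidney handles many antibiotics, antivirals and diuretics, and several of them depend on transcription factors of the HNF1 and HNF4 families.

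Values are log2 levels by robust multi-array averaging (RMA), in which 1 unit is a doubling. Array medians lay between 3.56 and 3.68. A background reference was set at 4.77, the 95th percentile over 1105 olfactory receptor genes of their mean level, and 2207 genes had a mean above it. That mean is taken over all 13 arrays, so a gene can pass through the groups where it is high. The S1 and S2 marker Slc34a1, a phosphate transporter, stood at 11.23 ± 0.23 (SD, n = 4) in control, whereas Slc5a2, the glucose transporter that defines this segment, had a mean of 4.27 over all arrays, below the reference. Arrays also differed in the SD of their log2 values: 7 wide arrays had an SD of at least 1.35 and 6 narrow ones of at most 1.30. The wide class held 2 of 4 control, 3 of 4 LPS and 2 of 5 LPS/LPS arrays, with LPS replicate 1 the only narrow array of its group. LPS replicate 3 stood apart by markers of later nephron segments (loop, distal tubule, collecting duct), with a mean log2 level of 4.99 over 16 genes against 3.90 to 4.15 on the other arrays. It also had the highest mean of 23 S1 and S2 markers, 5.78 against 4.34 to 5.20 on the others. Its means of late proximal (S3), endothelial and fibroblast markers were the highest too, while its lymphocyte marker mean was the lowest.

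Of the 9 transporters, Slc22a2, Slc22a6, Slc22a8, Abcc2 and Slc47a1 had means above the background reference, and Slc22a7, Abcc4, Abcb1a and Abcg2 lay below it. The basolateral carriers Slc22a2 and Slc22a6 had the largest differences, both lower in LPS/LPS than in control. With limma over all genes, 0 of the 9 passed an adjusted p of 0.05 in any of the 3 comparisons. The share of all genes that passed was 0% for LPS against control, 0.00902% for LPS/LPS against control and 0.0631% for LPS/LPS against LPS. At an unadjusted p under 0.05, 1, 3 and 3 members were lower in these comparisons, in that order, and 0 were higher. The same rule took 2.95%, 2.07% and 4.49% of all genes in the lower direction and 3.49%, 2.62% and 4.13% in the higher one. Groups did not overlap, with the first-named group lower, for 0, 1 and 0 members and for 1.6%, 0.699% and 1.3% of all genes. Among the 2207 genes above the reference, 3.17%, 6.07% and 12.1% were lower at an unadjusted p under 0.05. Their non-overlap shares are not given here. In bulk segments, fewer tubule cells and less RNA per cell cannot be told apart.

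**Figure D1:**
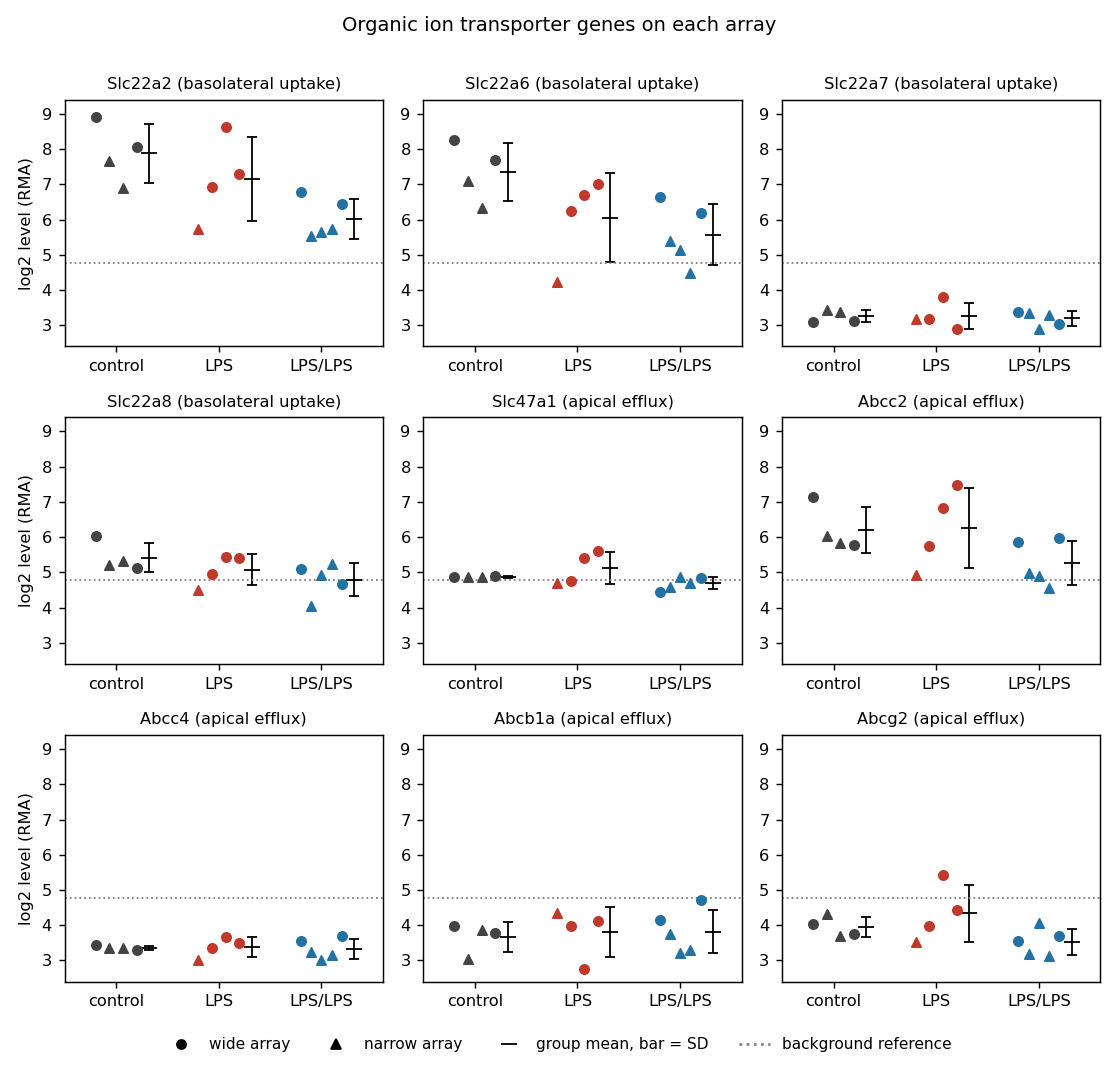
Log2 level (RMA, y axis) of each transporter gene on every array, by group; circles are wide arrays, triangles narrow ones, and the bar beside each group is its mean with the SD (n = 4, 4 and 5). Slc22a2 is the gene whose control and LPS/LPS arrays do not overlap, and Slc22a7, Abcc4 and Abcb1a lie below the dotted background reference on all 13 arrays.

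Slc22a2 encodes OCT2, the organic cation transporter that takes up creatinine, metformin and cisplatin from blood. Its log2 levels on the control arrays were 8.91, 7.66, 6.89 and 8.07. On the LPS arrays they were 5.74, 6.93, 8.64 and 7.30. On the LPS/LPS arrays they were 6.79, 5.52, 5.64, 5.72 and 6.45. Every LPS/LPS array was thus below every control array, while the LPS arrays overlapped both. Of all genes, 155, or 0.699%, separated the groups in this way and direction. Slc22a2 is among the genes above the reference, whose own share is not given here. At an unadjusted limma p under 0.05, 6.07% of those genes were lower in this comparison, against 2.07% of all genes. The Slc22a2 difference between LPS/LPS and control was -1.86 (SE 0.50, 95% interval -2.94 to -0.78), which is 0.275 times the control level (interval 0.130 to 0.582). Its unadjusted p was 0.00239 and its limma adjusted p over all genes was 0.921. The exact two-sided permutation test over the 9 arrays gave p = 0.00794, the smallest that this design allows. Compared among wide arrays alone it was -1.87, and among narrow arrays alone -1.65. Between LPS and control the difference was -0.73 (SE 0.53, adjusted p = 0.841). It was -0.39 without control replicate 1, -0.26 without LPS replicate 1 and -1.23 without LPS replicate 3. LPS/LPS differed from LPS by -1.13 (SE 0.50, unadjusted p = 0.0416, adjusted p = 0.557), but by only -0.12 within the narrow arrays, where LPS had 1 array. Without LPS replicate 3 that difference was -0.63.

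Slc22a6 encodes OAT1, the uptake carrier for para-aminohippurate and for many acidic drugs. Its control arrays read 8.25, 7.09, 6.33 and 7.69. The LPS arrays read 4.22, 6.25, 6.70 and 7.02, and the LPS/LPS arrays 6.65, 5.39, 5.13, 4.48 and 6.20. Both treated groups overlapped control through control replicate 3, and LPS replicate 1 was the lowest of all arrays. The mean was 5.57 ± 0.86 (SD, n = 5) in LPS/LPS and 7.34 ± 0.83 (SD, n = 4) in control. The difference of -1.77 (SE 0.57, 95% interval -2.98 to -0.56) had an unadjusted p of 0.00741 and a limma adjusted p of 0.987, and the exact permutation p was 0.0317. Wide arrays alone gave -1.55 and narrow arrays alone -1.71. For LPS against control the difference was -1.29 (SE 0.60, unadjusted p = 0.0485, adjusted p = 0.768, exact permutation p = 0.114). Without LPS replicate 1 it was -0.68. Of the 3 comparisons, LPS/LPS against LPS had the smallest difference, -0.48 (SE 0.57, adjusted p = 0.850), with an interval from -1.69 to 0.73, and it was 0.78 within the narrow arrays. Leaving out 1 array moved it between -1.09 (without LPS replicate 1) and -0.16 (without LPS replicate 4).

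Slc22a8, which encodes OAT3, the carrier for penicillins and steroid conjugates, lies next to Slc22a6 in the genome. Control arrays had levels of 6.02, 5.20, 5.32 and 5.12, LPS arrays 4.50, 4.95, 5.43 and 5.40, and LPS/LPS arrays 5.09, 4.06, 4.92, 5.23 and 4.67. The groups overlapped in every comparison, although 4 of the 5 LPS/LPS arrays were below every control array. All control arrays exceeded the background reference, as did 3 of 4 LPS and 3 of 5 LPS/LPS arrays. LPS/LPS differed from control by -0.62 (SE 0.27, unadjusted p = 0.0347, limma adjusted p = 0.987, exact permutation p = 0.0556). Wide arrays alone gave -0.69 and narrow arrays alone -0.52. LPS differed from control by -0.34 (SE 0.28, adjusted p = 0.858), but by -0.14 without control replicate 1 and -0.15 without LPS replicate 1. The difference of LPS/LPS from LPS was -0.28 (SE 0.27, adjusted p = 0.798). That value lay between -0.47 (without LPS replicate 1) and -0.095 (without LPS/LPS replicate 2), and it was 0.23 among the narrow arrays.

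The upstream sequences of these 3 uptake carriers are shown because these genes were the members lower in LPS/LPS than in control at an unadjusted p under 0.05, and because Slc22a6 and Slc22a8 are neighbours. Each is the run of 250 bases before a transcript start in RefSeq, build GRCm38.p6, plus strand, written 5′ to 3′. Slc22a6 is at chr19:8617746-8617995, Slc22a8 at chr19:8592932-8593181 and Slc22a2 at chr17:12583939-12584188. Capitals mark GTTAAT, a half-site of HNF1, searched on both strands.
Slc22a6: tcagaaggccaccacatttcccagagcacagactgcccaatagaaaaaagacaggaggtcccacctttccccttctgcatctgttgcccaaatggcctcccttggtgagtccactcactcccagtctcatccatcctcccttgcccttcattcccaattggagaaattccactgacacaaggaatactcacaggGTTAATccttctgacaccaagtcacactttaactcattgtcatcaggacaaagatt
Slc22a8: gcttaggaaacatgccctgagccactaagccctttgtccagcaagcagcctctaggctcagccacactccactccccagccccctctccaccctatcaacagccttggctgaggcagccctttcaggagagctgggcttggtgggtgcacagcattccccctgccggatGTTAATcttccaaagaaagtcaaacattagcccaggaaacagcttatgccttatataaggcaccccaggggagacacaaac
Slc22a2: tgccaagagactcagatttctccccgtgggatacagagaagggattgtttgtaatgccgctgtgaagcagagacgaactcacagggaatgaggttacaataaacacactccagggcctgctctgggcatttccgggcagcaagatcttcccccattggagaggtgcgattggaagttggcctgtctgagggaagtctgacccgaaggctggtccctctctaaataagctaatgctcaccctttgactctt
Windows were found for 7 of the 9 members, all but Slc22a7 and Slc47a1. The letters GTTAAT stand 56 to 51 bases before the Slc22a6 start and 81 to 76 bases before the Slc22a8 start, in the direction of the gene. They are in 2 of the 10 windows of these 7 members and in 6.43% of all 32851 windows. The letters CAAAGTCCA, a form of the HNF4 motif found in 0.384% of windows, were searched on both strands and matched 0 of the 7 members. An NF-kB motif of 10 letters, searched in the same way and found in 0.14% of windows, also matched 0. A match describes letters in a window, not a bound site.

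Slc22a7 encodes OAT2, an organic anion carrier that also moves cyclic nucleotides. All of its 13 values were between 2.89 and 3.80, below the background reference. Group means were 3.26 in control, 3.27 in LPS and 3.20 in LPS/LPS. LPS/LPS differed from control by -0.06 (SE 0.18, adjusted p = 0.991), with an interval from -0.44 to 0.32. A fall would be hard to detect at this level.

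**Figure D2:**
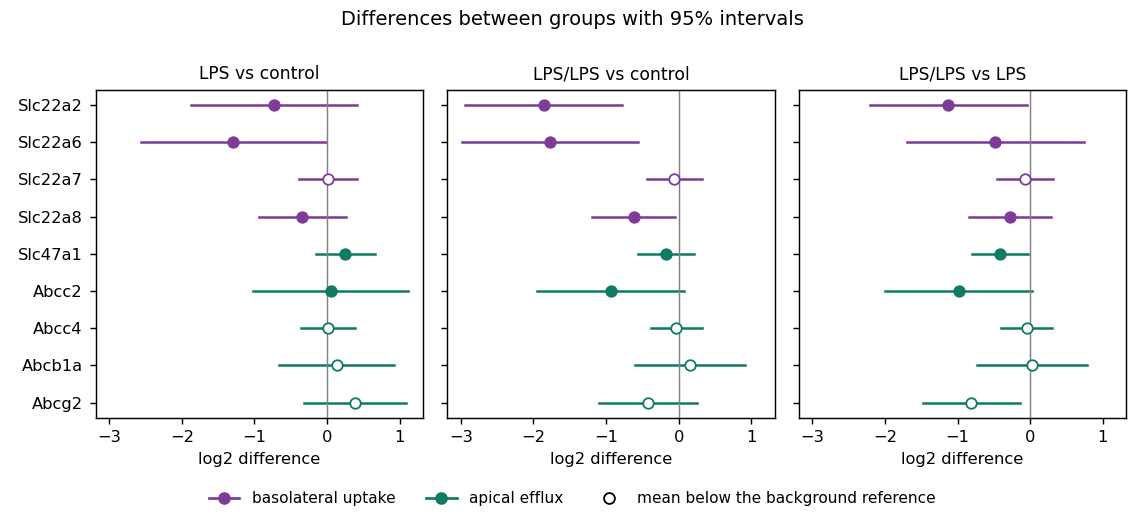
Log2 difference (x axis) of each transporter in the 3 comparisons, with limma's 95% interval as a line; filled points have a mean above the background reference and open points below it. In LPS/LPS against control the intervals of Slc22a2, Slc22a6 and Slc22a8 lie below 0, and those of Slc22a7 and the 5 efflux carriers include 0. In LPS/LPS against LPS the intervals below 0 are those of Slc22a2, Slc47a1 and Abcg2, and in LPS against control that of Slc22a6.

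Among the efflux carriers, Abcc2 had the highest single value. It encodes MRP2, the brush border ABC pump for glutathione and glucuronide conjugates. Control arrays read 7.15, 6.02, 5.84 and 5.77, LPS arrays 4.92, 5.76, 6.83 and 7.48, and LPS/LPS arrays 5.86, 4.97, 4.91, 4.56 and 5.99. LPS replicate 4 had the highest value of all arrays, and LPS replicate 1 lay below every control array. LPS and control differed by 0.05 (SE 0.498, adjusted p = 0.988). Its 95% interval ran from -1.02 to 1.12, which includes a halving and a doubling. LPS/LPS differed from control by -0.94 (SE 0.47, unadjusted p = 0.0676, adjusted p = 0.987) and from LPS by -0.99 (SE 0.47, unadjusted p = 0.0554, adjusted p = 0.584). Against control, wide arrays alone gave -0.54 and narrow ones -1.11. Against LPS, they gave -0.77 and -0.10. The difference from control was -0.62 without control replicate 1, and that from LPS was -0.58 without LPS replicate 4.

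Slc47a1 encodes MATE1, the proton-coupled exporter that passes the cations brought in by OCT2 on to urine. Control arrays lay together at 4.86, 4.86, 4.86 and 4.89. LPS arrays read 4.71, 4.75, 5.40 and 5.60, and LPS/LPS arrays 4.45, 4.59, 4.86, 4.71 and 4.85. LPS replicates 3 and 4 were the highest. The signal was near the background reference: 2 of 4 LPS and 2 of 5 LPS/LPS arrays exceeded it, and the LPS/LPS mean of 4.69 was below it. Control replicates 1 and 2 and LPS/LPS replicate 3 carried exactly the same value, and the control SD was 0.019. Repeats of a value between arrays occurred in 40.2% of the deposited probe sets. LPS/LPS differed from LPS by -0.42 (SE 0.18, unadjusted p = 0.0336, adjusted p = 0.533), from control by -0.18 (SE 0.18, adjusted p = 0.987), and LPS from control by 0.25 (SE 0.19, adjusted p = 0.849). The difference between LPS/LPS and LPS was -0.60 among wide arrays and 0.0064 among narrow ones. Without LPS replicate 4 it was -0.26, and that between LPS and control was 0.086. The difference between LPS/LPS and control was -0.12 without LPS/LPS replicate 1.

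Abcg2 encodes BCRP, which exports urate and sulphate conjugates. Its control levels were 4.04, 4.31, 3.70 and 3.75, its LPS levels 3.51, 3.98, 5.42 and 4.43, and its LPS/LPS levels 3.56, 3.19, 4.05, 3.14 and 3.68. LPS replicate 3 was the only array above the background reference. LPS/LPS differed from LPS by -0.81 (SE 0.31, 95% interval -1.48 to -0.14), with an unadjusted p of 0.0213 and an adjusted p of 0.481. It was the lowest p of the 9 in that comparison. Without LPS replicate 3 the difference was -0.45. The markers of that array, proximal ones included, were given above, and their part in the Abcg2 value was not tested. LPS differed from control by 0.39 (SE 0.33, adjusted p = 0.866), but by 0.025 without LPS replicate 3 and 0.66 without LPS replicate 1, and LPS/LPS from control by -0.43 (SE 0.31, adjusted p = 0.987).

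Abcc4 encodes MRP4, a pump for cyclic nucleotides and nucleotide analogues, and had values from 3.01 to 3.69. Its group means were 3.37 in control, 3.38 in LPS and 3.33 in LPS/LPS, and its differences lay between -0.05 and 0.02. Abcb1a encodes one of the mouse P-glycoproteins, which expel bulky lipophilic drugs. Its values ranged from 2.76 to 4.71, with group means of 3.67, 3.80 and 3.82. Both genes were below the background reference on every array. Abcb1a has a close neighbour and near copy, Abcb1b, with a mean of 3.34, and the arrays may not separate their signals.

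Set side by side by role, the 4 uptake carriers had a median difference of -1.20 in LPS/LPS against control and the 5 efflux carriers one of -0.18, where the median over all genes was 0.03. In LPS against control the medians were -0.54 and 0.13, against -0.02 for all genes. Medians for LPS/LPS against LPS were -0.38 and -0.42, against 0.05. Over the members above the reference, LPS/LPS against control gave -1.77 for 3 uptake carriers and -0.56 for 2 efflux carriers. For LPS against control these medians were -0.73 and 0.15. For LPS/LPS against LPS they were -0.48 and -0.71, with the efflux carriers lower. Of those 2 efflux carriers, Slc47a1 had an LPS/LPS mean of 4.69, below the reference. The difference between the 2 roles was not tested, and the 2 comparisons with control share their control arrays.

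Slc22a2 and Slc22a6 followed the spread of the arrays within each group. In control, LPS and LPS/LPS alike, each wide array was above each narrow array for both genes. Slc22a2 control levels were at least 8.07 on wide and at most 7.66 on narrow arrays. Slc22a6 control levels were at least 7.69 on wide and at most 7.09 on narrow arrays. These were 2 of 9 members, where 1.01% of all genes and 3.17% of genes above the reference showed this order in all groups. With the class as a block, the difference of Slc22a6 was -1.70 (SE 0.30, limma adjusted p = 0.0768) in LPS against control and -1.61 (SE 0.28, adjusted p = 0.107) in LPS/LPS against control. That of Slc22a2 in LPS/LPS against control was -1.73 (SE 0.32, adjusted p = 0.166). The block reduced the standard errors, and still 0 of the 9 members passed. For LPS/LPS against LPS it left Slc22a6 at 0.09 (SE 0.29) and Slc22a2 at -0.68 (SE 0.33).

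**Figure D3:**
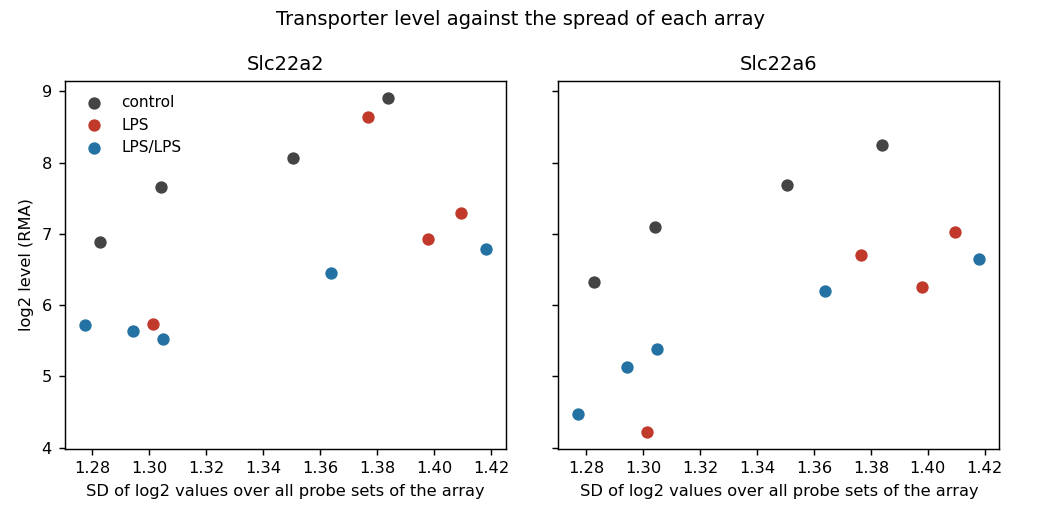
Log2 level (y axis) of Slc22a2 and Slc22a6 against the SD of the log2 values over all probe sets of the array (x axis); each point is 1 of the 13 arrays, coloured by group. Within each group the arrays with the larger SD, from 1.35 upward, have the higher levels of both genes.

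Several of the transporters also varied together from array to array. Slc22a2 and Slc22a6 had a Pearson r of 0.89 and a Spearman rho of 0.89 over 13 arrays, and an r of 0.86 after each group was centred on its mean. The r of Slc22a2 was 0.81 with Abcc2 and 0.77 with Slc22a8, but 0.48 with Slc47a1. With the members below the reference it was 0.68 (Abcg2), 0.59 (Abcc4), 0.27 (Slc22a7) and -0.20 (Abcb1a). Without the 2 arrays farthest from the median of Slc22a2, its r with Slc22a6 was 0.93. The points of these correlations share the array and its spread. Among 2206 genes above the reference, those most like Slc22a2 were Cyp4b1 (r = 0.96), a fatty acid hydroxylase gene, Fbp1 (r = 0.93), which encodes the gluconeogenic enzyme fructose bisphosphatase, and Gm19950 (r = 0.92). For Slc22a6 they were Cenpb (r = 0.89), Slc22a2 and the mitochondrial gene ND5 (r = 0.86). For Slc22a8 they were the glyoxylate reductase gene Grhpr (r = 0.91), the ribosomal gene Rpl7a (r = 0.87) and Acsm2 (r = 0.86). For Abcc2 they were Srsf5 (r = 0.91), Lgals1 (r = 0.89) and the endocytic receptor gene Lrp2 (r = 0.88). For Slc47a1 they were Crebbp, the microvillus gene Vil1 and 1810013L24Rik, with r between 0.89 and 0.90.

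Related genes were read from lists of the same pathway. Of 34 other organic ion carriers (the SLC22, SLC47, SLCO and SLC17 families and Slc2a9), 32 were measured and 6 had means above the reference. With limma, 0 of the 32 passed the adjusted threshold in any comparison. In LPS/LPS against control 3 were lower and 0 higher at an unadjusted p under 0.05. The median was -0.05 over the list and -0.79 over the 6 above the reference, where all genes above it had -0.0074. Some of the 6 were above the reference only through the other groups, such as Slc22a28 and Slco3a1, both at 4.31 in LPS/LPS. Slco3a1, a prostaglandin and thyroxine carrier gene, differed by -0.70 (SE 0.21, adjusted p = 0.974), from 5.01 in control to 4.31. Slc22a28 differed by -1.26 (SE 0.51, adjusted p = 0.987), from 5.58 to 4.31. Slco3a1 also differed by -0.84 (SE 0.21, adjusted p = 0.234) between LPS/LPS and LPS. The urate exchanger gene Slc22a12 differed there by -0.80 (SE 0.52, adjusted p = 0.695). In LPS against control the 2 members with the lowest p among those above the reference were Slc22a28 (-0.65, SE 0.54) and Slc22a17 (0.17, SE 0.16). Of the 9 other ABC exporters, 0 had a mean above the reference, and 0 reached an unadjusted p of 0.05 in any comparison.

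Of 12 genes that build the ion gradients for this transport, 10 were measured and 0 passed with limma. In LPS/LPS against control all 10 had negative differences, from -1.22 (Atp1b1) to -0.0046 (Slc25a11), with a median of -0.44. Over all genes 44.2% of differences in that comparison were negative, and 51.5% over genes above the reference. Of the 10 genes, 1 was lower at an unadjusted p under 0.05, the potassium channel gene Kcnj15 (-0.47, SE 0.18, adjusted p = 0.987). The sodium pump regulator Fxyd2 differed by -0.98 (SE 0.53, adjusted p = 0.987). Slc13a3, the dicarboxylate carrier that returns alpha-ketoglutarate for anion exchange, differed by -0.28 (SE 0.43, adjusted p = 0.925) in LPS against control, where Kcnj15 differed by 0.06 (SE 0.19). Between LPS/LPS and LPS, Kcnj15 differed by -0.53 (SE 0.18, adjusted p = 0.431) and the sodium pump subunit gene Atp1b1 by -1.26 (SE 0.67, adjusted p = 0.627).

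Of 21 regulators and scaffolds, 18 were measured and 2 had means above the reference. Hnf4a, which encodes a nuclear receptor that drives several of these transporters, differed by -0.09 (SE 0.25) in LPS against control, -0.42 (SE 0.23) in LPS/LPS against control and -0.34 (SE 0.23) in LPS/LPS against LPS. Pdzk1ip1, a brush border protein gene that binds the scaffold of apical carriers, differed by 0.05 (SE 0.27), -0.38 (SE 0.26) and -0.43 (SE 0.26) in the same order. In both genes the limma adjusted p was at least 0.669. The single call of all these lists was Ezr, with a mean of 4.08 below the background reference, chosen after its values were seen, which encodes ezrin, the protein that ties apical membrane proteins to the actin of the microvilli. Its control levels were 3.88, 4.28, 3.36 and 3.72, its LPS levels 4.48, 4.75, 5.68 and 5.38, and its LPS/LPS levels 3.76, 3.61, 3.40, 3.23 and 3.52. All LPS arrays lay above all others, but only LPS replicates 3 and 4 exceeded the reference. The share of all genes with this order is not given here. Between LPS and LPS/LPS the difference was -1.57 (SE 0.24, limma adjusted p = 0.0337), a value measured against levels at background. LPS differed from control by 1.26 (SE 0.25, adjusted p = 0.150, or 0.0441 without LPS replicate 1). The call was lost in a fit of the compared groups alone (adjusted p = 0.124), with the replicate block (adjusted p = 0.223), over all probe sets (adjusted p = 0.0845) and without moderation (adjusted p = 0.222). It was also lost on leaving out control replicate 4, LPS replicate 3 or 4, or LPS/LPS replicate 2, 3, 4 or 5, with adjusted p-values from 0.0560 to 0.124. Over all alternatives the adjusted p ran from 0.00658 to 0.223.

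**Figure D4:**
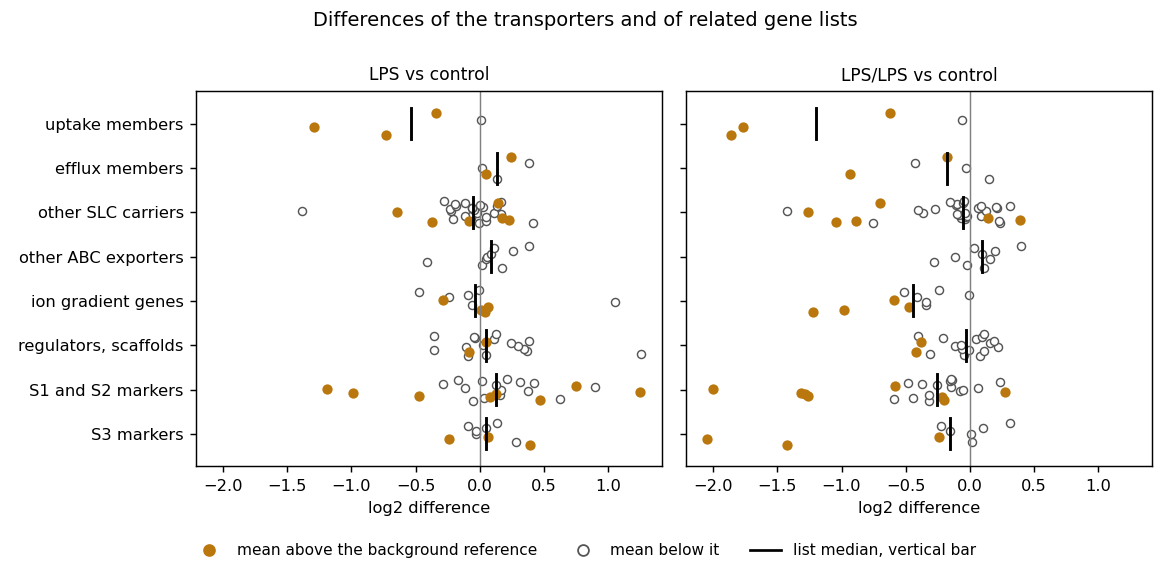
Log2 differences (x axis) of the single genes of 8 lists (y axis) for LPS and for LPS/LPS, each against control; filled points have a mean above the background reference, and the vertical bar is the list median. In LPS/LPS against control the median is -1.20 for the uptake carriers, -0.44 for the ion gradient genes and -0.25 for the S1 and S2 markers.

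Of 24 S1 and S2 markers, 23 were measured and 8 were above the reference. In LPS/LPS against control 20 of the 23 had negative differences, with a median of -0.25 over the list and -0.92 over the 8. Some of the 8 were above the reference only through the other groups, such as Lrp2 with an LPS/LPS mean of 4.11. Pck1 (0.28), Slc6a20b (0.23) and Slc34a3 (0.07) were the members with positive differences, and 0 passed with limma while 6 were lower at an unadjusted p under 0.05. Slc34a1 differed by -2.01 (SE 0.35, adjusted p = 0.197), Miox by -1.31 (SE 0.37, adjusted p = 0.921) and Lrp2 by -1.29 (SE 0.58). The differences of Slc22a2 and Slc22a6 thus lay between those of Slc34a1 and Miox. The mean log2 level of the 23 markers was 4.63 to 5.20 in control, 4.49 to 5.78 in LPS and 4.34 to 4.82 in LPS/LPS. In LPS against control Slc34a1 differed by -1.19 (SE 0.37, adjusted p = 0.551) and Pck1 by 1.25 (SE 0.38, adjusted p = 0.551), and 7 of the 23 differences were negative, with a median of 0.13. Relative to LPS, in LPS/LPS the sodium bicarbonate cotransporter gene Slc4a4 differed by -1.33 (SE 0.37, adjusted p = 0.322) and Pck1 by -0.97 (SE 0.36, adjusted p = 0.470). Of 10 S3 markers 9 were measured and 3 lay above the reference, and 0 passed with limma. Against control, 5 of the 9 had negative differences in LPS/LPS, with a median of -0.16, and Slco1a6 had the highest (0.32). Over the 3 above the reference the median was -1.42 against control and -1.81 against LPS, and 0.07 for LPS against control. Of these, Atp11a and Kap had LPS/LPS means of 4.41 and 4.23, below the reference. Atp11a differed by -1.42 (SE 0.37, adjusted p = 0.921) and the androgen-regulated gene Kap by -2.05 (SE 0.68, adjusted p = 0.987) in LPS/LPS against control. Against LPS these were -1.82 (SE 0.37, adjusted p = 0.120) and -1.81 (SE 0.68, adjusted p = 0.470). In LPS against control Atp11a differed by 0.40 (SE 0.39) and Slc1a1 by 0.07 (SE 0.16).

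Markers of other cells are given by their mean level per array. The mean log2 level of 11 endothelial markers was 3.83 to 3.98 in control, 4.01 to 4.25 in LPS and 4.01 to 4.13 in LPS/LPS. That of 15 macrophage and monocyte markers was 3.80 to 3.84, 3.85 to 3.998 and 3.87 to 4.04, and the control and LPS ranges nearly met. The 10 fibroblast and mural cell markers ranged from 3.76 to 3.97, 3.84 to 4.42 and 3.98 to 4.23. Lymphocyte (9 measured), neutrophil (9) and podocyte (6) markers overlapped between groups, and 0 of 6 erythrocyte markers were measured. Of these lists, 1 endothelial (Egfl7), 1 macrophage (Cx3cr1), 1 lymphocyte (Nkg7), 2 fibroblast (Col3a1 and Acta2) and 0 neutrophil or podocyte markers had means above the reference. In LPS/LPS against control they differed by 0.30 (SE 0.13), 0.27 (SE 0.16), -0.11 (SE 0.13), 0.21 (SE 0.12) and 0.05 (SE 0.17), and 0 passed with limma. Cx3cr1 differed by -0.14 (SE 0.17) in LPS against control, where 4 of the 15 macrophage markers had negative differences. Of the 16 markers of later nephron segments 3 had means above the reference, Umod, Hsd11b2 and Trpm6. Umod stood at 8.36 on LPS replicate 3. On control replicate 1 it stood at 6.77, against 4.28 to 5.10 on the other control arrays, while the mean of the 16 markers there was 4.08. Umod differed by -0.29 (SE 0.70) in LPS/LPS against control, Hsd11b2 by 0.21 (SE 0.16) and Trpm6 by 0.11 (SE 0.17), and 7 of the 16 differences were negative. The part of these shifts in the transporter values was not tested.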

How the data were processed

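Segment RNA was isolated with a PicoPure kit, and 2 ng of each sample went through WT Pico labelling, per the labels' protocols. The deposited values are log2 per probe set; RMA and Partek 6.6 appear in the submitters' processing notes, and the normalization settings and build were not given in the sources used here. RMA can compress changes of dim genes, and precision is limited by the number of arrays.

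Of 41345 probe sets, 23521 had 1 gene symbol in the platform annotation, 1814 had several and 16010 had none; 23328 of the first matched RefSeq by Entrez identifier. For 1082 genes with more than 1 probe set, that with the highest mean was kept. One limma model (lmFit, eBayes; limma 3.58.1, R 4.3.3) without covariates covered the 13 arrays. Two-sided tests were corrected with the Benjamini-Hochberg method across 22180 genes (threshold 0.05), and the script was tested on simulated data. Exact permutation tests used differences in means, over 27 member comparisons. Named genes were the members, the 2 genes of each list above the reference with the lowest p per comparison, the 3 genes most correlated with each member above it, and Slc5a2, Slc34a1 and Lrp2. Ezr and Abcb1b fall outside that rule, as do Slc25a11, Slc6a20b, Slc34a3 and Slco1a6, which were given as extremes or exceptions of their lists. The labels do not say whether replicate numbers mark a shared litter or day, so the main fit had no block for them. The alternatives tried are given in the closing section. The members, lists, array classes and reference were chosen with earlier results of these data known.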

Additional observations from a re-analysis of the deposited data

Results flagged for a closer look

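Among 27 combinations of transporter and group, 1 array stood apart. Slc47a1 on control replicate 4 had a log2 level of 4.89, while the nearest other control array was at 4.86. The gap was 0.881 of the group's range, above Dixon's 95% critical value for 4 arrays. The gap itself is small, because the other control arrays lay almost on the same value and 2 of them on exactly the same one. Chance would set apart about 1 in 20 groups.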

How the results depend on the processing

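No setting brought a transporter past the threshold: 0 of the 9 members were called in any of the 3 comparisons under the alternatives run, leave-one-out included. The lowest adjusted p was 0.0768, for Slc22a6 in LPS against control with the array spread class as a block. The number of genes called over the whole table was less stable. With limma it was 0 for LPS against control, 2 for LPS/LPS against control and 14 for LPS/LPS against LPS. In the same order it was 3, 0 and 4 with the replicate block. Fits of only the compared groups gave 0 and 2 for the comparisons of LPS/LPS with control and with LPS, and a fit of all probe sets gave 0 and 7. Per-gene models without moderation gave 0 and 0 for these comparisons. Array weights gave 30 for LPS against control and 41 for LPS/LPS against LPS. Quantile normalization gave 7 for LPS against control and 4 for LPS/LPS against control, the spread class as a block gave 4 for the latter, and genes above the reference alone gave 3 for the former. Leaving out 1 array gave 0 to 24, 0 to 3 and 5 to 96, and the highest counts of 24 and 96 came without LPS replicate 1. The causes were not tested.

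Some differences changed sign. With the replicate block Abcb1a was at -0.070 in LPS/LPS against control and -0.20 against LPS. With array weights Slc22a7 was at -0.0023 and Abcc2 at -0.11 in LPS against control, and Abcb1a at -0.14 in LPS/LPS against LPS. With the spread class as a block Abcc2 was at -0.22 and Abcc4 at -0.066 in LPS against control, Abcc4 at 0.0028 in LPS/LPS against control, and Slc22a6 at 0.089 and Abcc4 at 0.069 in LPS/LPS against LPS. With quantile normalization Abcc2 was at -0.079 in LPS against control and Abcb1a at -0.025 in LPS/LPS against LPS. Among the narrow arrays alone, where LPS had 1, the difference between LPS and control was -0.49 for Abcg2, -0.15 for Slc47a1, -1.01 for Abcc2, -0.33 for Abcc4 and -0.21 for Slc22a7. There LPS/LPS against LPS gave 0.78 for Slc22a6, 0.23 for Slc22a8, 0.0064 for Slc47a1, 0.12 for Abcc4 and -0.92 for Abcb1a, and LPS/LPS against control gave -0.044 for Abcb1a. Among the wide arrays alone, Abcb1a was at -0.26 in LPS against control, Slc22a7 at 0.11 and Abcc4 at 0.25 in LPS/LPS against control, and Abcc4 at 0.12 in LPS/LPS against LPS. Leaving out 1 array moved Abcc2 between -0.36 and 0.50 in LPS against control. In the order of the 3 comparisons it moved Slc22a7 between -0.17 and 0.13, -0.11 and 0.017, and -0.19 and 0.11. Abcc4 moved between -0.075 and 0.14, -0.12 and 0.051, and -0.17 and 0.045. Abcb1a moved between -0.073 and 0.48, -0.070 and 0.30, and -0.33 and 0.20. The differences of Slc22a2 and Slc22a6 between LPS/LPS and control stayed negative in all of these, from -2.19 to -1.52 and from -2.11 to -1.47 on leaving out 1 array. So did those of Slc22a8 (-0.73 to -0.42), Abcc2 (-1.12 to -0.62), Abcg2 (-0.56 to -0.30) and Slc47a1 (-0.22 to -0.12), with the ranges again for leaving out 1 array.

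Same-numbered samples did not deviate together: of 12 pairs, 3 had correlations of deviations from the group means above 0.1 (range -0.35 to 0.22), and 2 of 13 arrays correlated best with their own number. The fit of genes above the reference gives no value for Ezr and the 4 members below it. Signal near background limits Slc22a7, Abcc4, Abcb1a and Abcg2, and also Slc47a1 and Slc22a8, whose LPS/LPS means were 4.69 and 4.79.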
